A study of Mus musculus with 6 samples.

Results

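The 10 genes described here encode the stress-inducible and constitutive heat shock proteins of the cytosol and the chaperonin pair of the mitochondrion, namely Hspa1a, Hspa1b, Hspb1, Hsph1, Dnajb1, Hsp90aa1, Hsp90ab1, Hspa8, Hspd1 and Hspe1. They were chosen by gene symbol, and all 10 were found among the 54532 genes of the RNA-seq table. The RNA came from the hippocampus of 3 wild-type (WT) mice and 3 TG mice. TG mice carry the G82R and L85P substitutions, knocked into exon 3 of Slc1a2 with CRISPR/Cas9 on a C57BL/6N background. Slc1a2 encodes GLT-1, the main glutamate transporter of astrocytes. The founders were bred with C57BL/6 mice, and the study used WT littermates as controls. The change lies in the gene's own locus and is not limited to a cell type by a transgene promoter or Cre. The age, sex and zygosity of the sequenced animals were not given in the sources used here. The labels number the mice within each genotype, and the p-values below measure the spread between these 6 samples.

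Heat shock proteins bind unfolded or partly folded proteins and help them to fold, to reach their compartment or to be degraded. In the cytosol, J-domain proteins such as DNAJB1 hand substrates to HSP70, HSP110 exchanges its nucleotide, and HSP90 receives a subset of these clients. In the mitochondrial matrix, HSP60 and its lid HSP10 form a folding chamber. When unfolded proteins accumulate, the transcription factor HSF1 forms trimers and binds heat shock elements, which are inverted repeats of the unit GAA. In the unstressed brain, the constitutive HSP70 and both HSP90 proteins are abundant, whereas the inducible HSP70 genes are expressed at a low level.

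The promoter sequences are shown because this element is the common route by which the family is induced. Windows from 250 bases upstream to 50 bases downstream of the annotated start were present for 7 of the 10 genes in the RefSeq set for GRCm38.p6. The promoters of Hsp90aa1, Hsp90ab1 and Hspa8 were not analysed here. A pair of inverted units, GAANNTTC or TTCNNGAA, was found in the windows of 6 of these 7 genes, all except Dnajb1. GAANNTTC was present in 7.86% and TTCNNGAA in 8.52% of all 32851 windows, and each motif reads the same on both strands. An element of 3 units, in which the 2 pairs overlap, was searched on both strands and found for Hspd1, Hspe1 and Hsph1. It was present in 0.603% of all windows. The inducible genes Hspa1a and Hspa1b each held a single GAANNTTC pair starting 104 bases upstream of the start, and Hspb1 held 2. Only exact matches were searched. Longer elements with an imperfect unit were therefore not counted for any gene, Dnajb1 included. The stretches below run 5′ to 3′ on the strand of the gene, with the letters of the motif matches in capitals. The first 3 lie upstream of the start, at chr17:34972187-34972306 for Hspa1a, chr17:34959269-34959388 for Hspa1b and chr5:135887769-135887888 for Hspb1.
Hspa1a: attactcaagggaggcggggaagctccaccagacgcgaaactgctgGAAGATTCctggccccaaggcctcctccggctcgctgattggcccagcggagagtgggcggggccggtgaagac
Hspa1b: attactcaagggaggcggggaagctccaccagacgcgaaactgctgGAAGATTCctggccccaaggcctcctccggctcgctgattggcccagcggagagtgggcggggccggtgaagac
Hspb1: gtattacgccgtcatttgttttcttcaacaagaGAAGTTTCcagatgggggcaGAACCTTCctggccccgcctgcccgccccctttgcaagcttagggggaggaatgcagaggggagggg

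The Hspa1a and Hspa1b stretches were identical at 120 of 120 bases, and the full windows at 296 of 300. Hspd1 and Hspe1 are arranged head to head on chromosome 1 and share a single site of 2 overlapping elements, within chr1:55088053-55088082, read on the plus strand for Hspe1 and on the minus strand for Hspd1. It falls in an annotated UTR of 1 Hspd1 transcript. The Hsph1 element, within chr5:149636280-149636308 on the minus strand, falls in a UTR of 2 transcripts.
Hspe1: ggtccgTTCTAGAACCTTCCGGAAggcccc
Hspd1: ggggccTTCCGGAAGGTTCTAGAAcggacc
Hsph1: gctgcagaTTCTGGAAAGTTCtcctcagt

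Within each TTC and GAA series above, overlapping matches are merged into 1 capital run. CCAAT, a box common to many promoters, was present in the windows of 5 of the 7 genes and in 37.4% of all windows. A match describes letters only, since no binding was measured.

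Expression is given as FPKM, fragments per kilobase of gene scaled to the mapped reads. This allows levels to be compared between genes as far as reads can be assigned to a single gene. In WT mice, Hsp90ab1 was the highest of the 10 at 567 ± 30.8 FPKM (SD, n = 3), followed by Hspa8 at 313 ± 27.3 and Hsp90aa1 at 257 ± 23.3. By the mean over the WT and TG libraries together, these ranked 27, 61 and 92 among the 15125 coding genes tested. Together they made up 86.8% to 87.6% of the summed FPKM of the 10 genes in every library. Hspd1 at 61.0 ± 7.51, Hspe1 at 38.3 ± 5.58, Hsph1 at 36.2 ± 2.17 and Dnajb1 at 17.3 ± 0.97 FPKM formed a middle range. Hspb1 at 7.92 ± 0.658, Hspa1b at 6.65 ± 0.301 and Hspa1a at 3.95 ± 0.464 FPKM were the lowest, with Hspa1a at rank 7883 by the mean over both genotypes. These 3 also had the largest shares of 50-base stretches found in another gene, at 48.8%, 62.3% and 60.3%. The effect of this on their levels was not tested. Of the 9 neighbouring pairs in this order, the values of Hspe1 and Hsph1 overlapped between WT libraries and those of the other 8 pairs did not. In TG mice, Hsph1 at 34.3 ± 0.297 FPKM stood above Hspe1 at 30.8 ± 1.88 FPKM, and Hspb1 and Hspa1b were the only neighbours that overlapped.

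**Figure D1:**
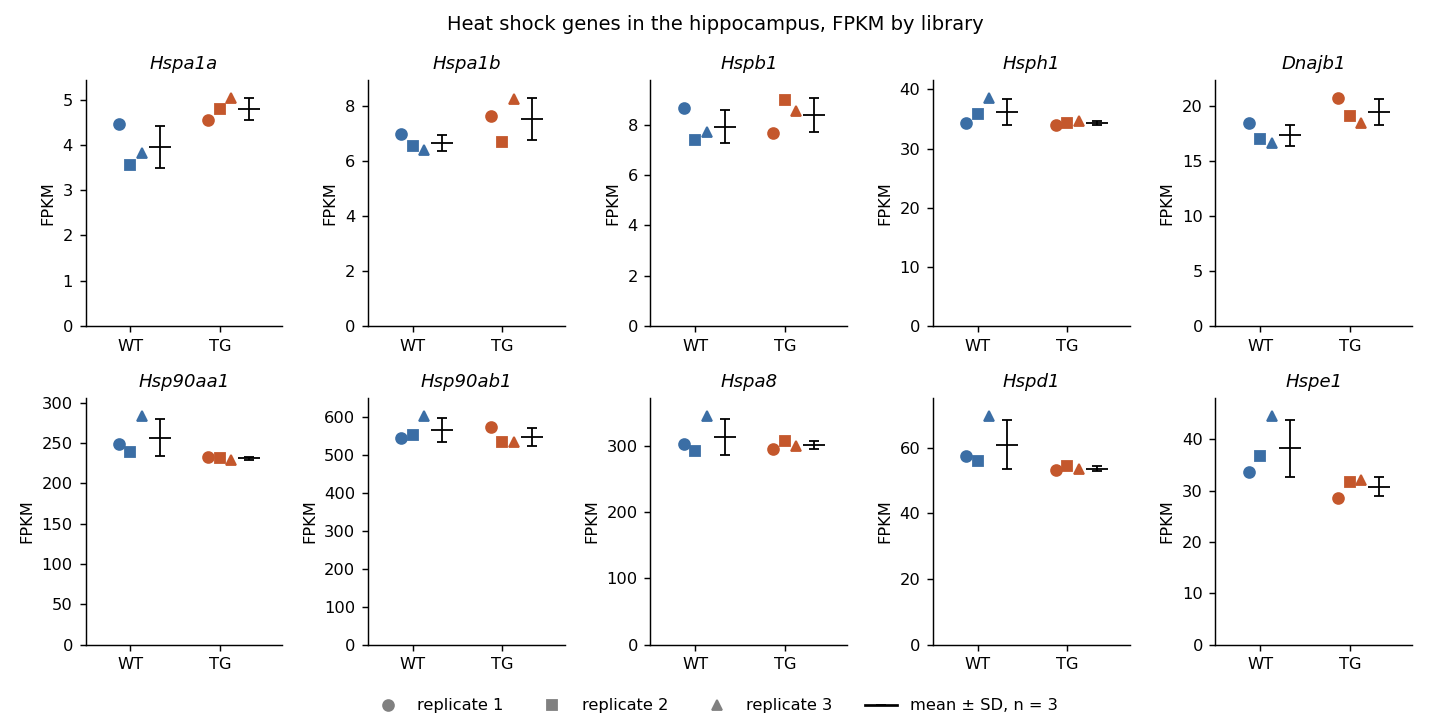
FPKM of each of the 10 genes (y axis, linear, from 0) in the WT and TG libraries (x axis), with 1 symbol per library and the mean ± SD (n = 3) as bars. Hspa1a and Dnajb1 lie higher in all 3 TG libraries, Hsp90aa1, Hspd1 and Hspe1 lie lower, and WT3 is the highest library for 6 genes.

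Between genotypes, no gene of the 10 passed an adjusted p of 0.05 in limma's test, in which 0.00955% of the 20952 genes tested did. At an unadjusted p under 0.05, Hspa1a was higher in TG mice and Hspe1 was lower. That is 1 of 10 in each direction, against 3.13% of all genes tested for a higher and 2.78% for a lower level. The TG libraries lay entirely above the WT libraries for 2 genes, Hspa1a and Dnajb1, against 6.35% of all genes. They lay entirely below for 3 genes, Hsp90aa1, Hspd1 and Hspe1, against 5.71%. The estimate was positive for 4 genes and negative for 6, with a median log2 fold change of -0.05, while the median of all genes tested was -0.00. The interval of a gene excludes 0 where its unadjusted p is under 0.05. A log2 fold change here is a difference of mean log2(FPKM + 0.1), which understates the change of genes at low FPKM.

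Hspa1a (ENSMUSG00000091971, GRCm38 chromosome 17 from 34969190 to 34972156, minus strand) and Hspa1b (ENSMUSG00000090877, chromosome 17 from 34956436 to 34959238, minus strand) encode near-identical inducible HSP70 proteins. Each has 1 exon, and they lie 9951 bases apart. Gm20481 overlaps Hspa1a on the opposite strand and was listed at 0 in every library. Hspa1a had an FPKM of 4.47, 3.57 and 3.82 across WT1 to WT3 against 4.56, 4.79 and 5.04 across TG1 to TG3. The groups did not overlap, but WT1 and TG1 were close to each other. The log2 fold change was 0.28 (SE 0.109, 95% confidence interval 0.02 to 0.53, adjusted p = 0.786), a level 21.3% higher. The unadjusted p was under 0.05 when WT1 or TG1 was left out and was not when WT2, WT3, TG2 or TG3 was, while the log2 fold change lay between 0.21 (without WT2) and 0.37 (without WT1).

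Hspa1b had an FPKM of 6.99, 6.56 and 6.40 in WT mice against 7.62, 6.71 and 8.24 in TG mice. TG2 lay inside the WT range and the other 2 TG libraries above it. Its log2 fold change of 0.17 had an interval from -0.06 to 0.40 (adjusted p = 0.789). It was 0.25 without TG2, where it was under the unadjusted threshold, and 0.10 without TG3, with 0.14 to 0.21 when one of the other 4 libraries was left out. In both genes TG3 was the highest of the 6 libraries.

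The pair cannot be separated fully by short reads. Of the stretches of 50 bases in the Hspa1a transcript, 58.8% also occur in Hspa1b, and 62.3% of those in Hspa1b also occur in Hspa1a. The rule by which reads were split between them was not given in the sources used here. The summed FPKM of the pair depends on that split only through the gene lengths, 2967 and 2803 bases, as far as reads were kept. It was 11.5, 10.1 and 10.2 across WT1 to WT3 against 12.2, 11.5 and 13.3 across TG1 to TG3, which places TG2 (11.50) just above WT1 (11.45). The means were 10.6 ± 0.739 and 12.3 ± 0.896 FPKM (SD, n = 3), a ratio of 1.16. The reads behind these values were few, between 171 and 270 per library for Hspa1a and between 297 and 417 for Hspa1b. For Hspa1a, counting alone gives a coefficient of variation of 6.63%, beside 11.7% between the WT libraries and 5.01% between the TG libraries.

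Dnajb1 (ENSMUSG00000005483, chromosome 8 from 83608193 to 83612653, plus strand) encodes the J-domain protein that works with inducible HSP70 and is itself induced by HSF1. Its FPKM was 18.42, 16.9 and 16.6 in WT mice against 20.7, 19.1 and 18.44 in TG mice. All TG values were above all WT values, although TG3 and WT1 were almost equal. The estimate was 0.16 on the log2 scale (SE 0.076, interval -0.01 to 0.34, adjusted p = 0.786). With 1 library left out it ranged from 0.12 (without TG1) to 0.21 (without WT1), and of these values that without WT1 passed the unadjusted threshold. Without both TG1 and TG2 it was 0.09.

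Hspb1 (ENSMUSG00000004951, chromosome 5 from 135887919 to 135889563, plus strand) encodes the small heat shock protein HSP25, which holds unfolded proteins without using ATP. It had an FPKM of 8.66, 7.39 and 7.72 across WT1 to WT3 against 7.66, 8.98 and 8.54 across TG1 to TG3. The groups overlapped, with TG1 and TG3 inside the WT range and TG2 above it. The log2 fold change of 0.08 had an interval from -0.14 to 0.31 (adjusted p = 0.836). It was 0.03 without WT2 or TG2 and 0.15 without WT1 or TG1. It rested on 123 to 166 reads per library, for which counting gives a coefficient of variation of 8.22%, close to the 8.31% between WT libraries.

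Hsph1 (ENSMUSG00000029657, chromosome 5 from 149614287 to 149636376, minus strand) encodes HSP110, the nucleotide exchange factor of HSP70. The WT values were 34.3, 35.9 and 38.6 FPKM and the TG values 34.0, 34.4 and 34.6 FPKM. TG1 lay just below the WT range and TG2 and TG3 at its lower end inside it, and the TG libraries were tightly grouped, with a coefficient of variation of 0.866% that was smaller than the 1.49% of counting alone. A log2 fold change of -0.07 was estimated (interval -0.23 to 0.08, adjusted p = 0.789). Of the 5 genes described up to here, 4 had a positive and Hsph1 a negative estimate. Negative estimates were also found for Hsp90aa1, which encodes the inducible HSP90 (-0.15), and for Hspd1 (-0.18) and Hspe1 (-0.31), which share heat shock elements. The estimate for Hsph1 was -0.03 without WT3 and -0.11 without WT1.

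**Figure D2:**
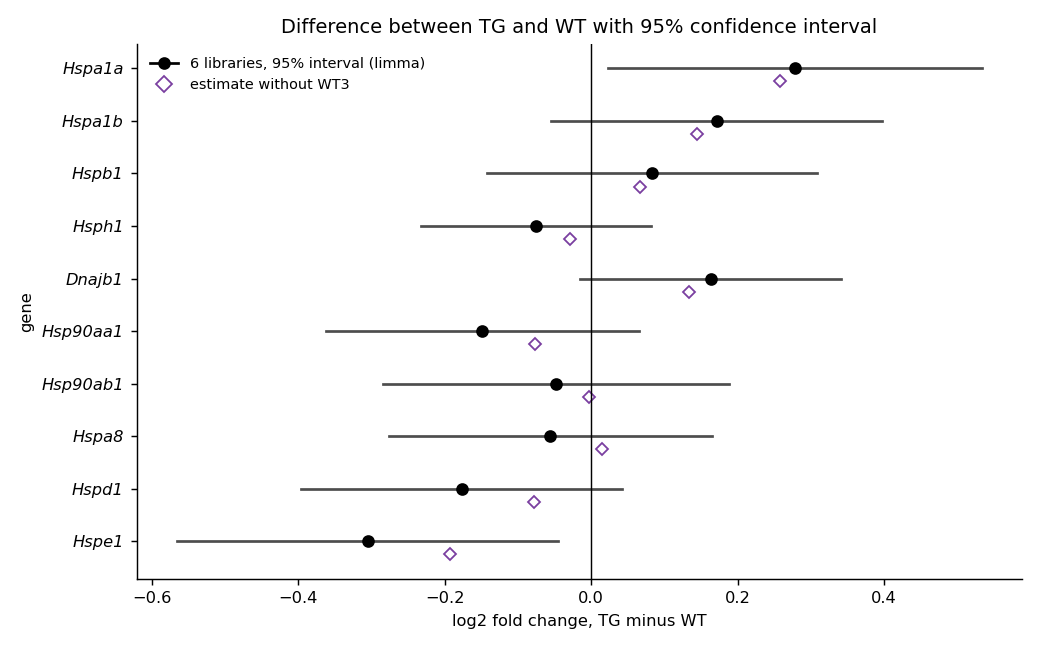
Log2 fold change between TG and WT mice (x axis) of each gene (y axis), with the 95% confidence interval of limma as a line and the estimate without WT3 as an open diamond. The intervals of Hspa1a and Hspe1 exclude 0 before adjustment, and the diamonds of all 10 genes lie closer to 0 than the filled points, with that of Hspa8 on the other side of 0.

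Hsp90aa1 (ENSMUSG00000021270, chromosome 12 from 110690605 to 110702728, minus strand) and Hsp90ab1 (ENSMUSG00000023944, chromosome 17 from 45567775 to 45573271, minus strand) encode the inducible and the constitutive cytosolic HSP90. Hsp90aa1 had an FPKM of 249, 239 and 283 across WT1 to WT3 against 232.5, 231.6 and 229 across TG1 to TG3. All 3 TG values were below all WT values and within 0.791% of each other as a coefficient of variation, which is close to the 0.770% that counting alone gives at 14460 to 20826 reads per library. This gave a log2 fold change of -0.15 (interval -0.36 to 0.06, adjusted p = 0.789), and of -0.08 without WT3.

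Hsp90ab1 had an FPKM of 546, 553 and 602 in WT mice against 575, 535 and 534 in TG mice. TG1 lay within the WT range and WT3 was the highest. Its log2 fold change was -0.05 (interval -0.28 to 0.19, adjusted p = 0.914) and -0.00 without WT3, or -0.08 without TG1.

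Hspa8 (ENSMUSG00000015656, chromosome 9 from 40800984 to 40810087, plus strand) encodes HSC70, the constitutive HSP70. Its FPKM was 303, 292 and 344 in WT mice against 295, 307 and 299 in TG mice. All TG values were inside the WT range. The estimate was -0.06 on the log2 scale (interval -0.28 to 0.17, adjusted p = 0.890), and it changed sign to 0.01 without WT3.

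Hspd1 (ENSMUSG00000025980, chromosome 1 from 55077835 to 55088243, minus strand) encodes HSP60 and Hspe1 (ENSMUSG00000073676, chromosome 1 from 55088132 to 55091307, plus strand) encodes HSP10. The 2 genes overlap by 112 bases on opposite strands, where reads counted without strand cannot be assigned to either. Hspd1 had an FPKM of 57.4, 55.9 and 69.6 across WT1 to WT3 against 53.1, 54.5 and 53.5 across TG1 to TG3. The TG values were all lower, by a small margin from WT1 and WT2 and by a larger one from WT3. For Hspd1 the log2 fold change was -0.18 (interval -0.40 to 0.04, adjusted p = 0.789) and -0.08 without WT3.

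Hspe1 had an FPKM of 33.6, 36.8 and 44.4 in WT mice against 28.6, 31.7 and 32.0 in TG mice. The groups did not overlap, with WT3 the highest and TG1 the lowest library. For Hspe1 the log2 fold change was -0.31 (SE 0.111, interval -0.57 to -0.04, adjusted p = 0.786), a change of -19.1% in level. It was -0.19 without WT3 and -0.39 without WT1, both under the unadjusted threshold. It was -0.33, -0.25, -0.33 and -0.33 without WT2, TG1, TG2 and TG3, and none of these 4 values passed that threshold.

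Processed copies bear on several of these values. Of the 50-base stretches of Hspd1, 38.0% also occur in Hspd1-ps3, and 48.8% of those of Hspb1 occur in Hsp25-ps1. For Hsp90aa1, Hspa8 and Hspe1, 47.5%, 38.6% and 18.4% occur in at least 1 other gene. Most of the share of Hspe1 is with AC117239.2 (17.9%), for which no reads are given here. Gm12346, which shares the most with Hsp90aa1 (41.8%), had 178 to 257 reads per library and 4.40 to 6.09 FPKM, with WT3 the highest as for Hsp90aa1. Gm5844 had 9 to 16 reads. Of the copies of Hspa8, Gm15459 (34.6%) was listed at 0 in every library and Gm8355 (22.7%) had 23 to 39 reads. Another group, of 14 annotated pseudogenes, is named after the 10 genes or described as their copies, and 7 of these had a read. Hspd1-ps3 (ENSMUSG00000058809), singled out after its values were seen, had an FPKM of 1.73, 2.05 and 1.67 in WT mice against 2.31, 3.43 and 3.15 in TG mice. All TG values were higher, in the direction opposite to Hspd1, with a log2 fold change of 0.66 (interval 0.26 to 1.07, adjusted p = 0.786) on 54 to 106 reads. The other 13 of these, Hsp25-ps1 included, had at most 3 reads in any library. Whether reads of these copies came from the genes themselves was not tested.

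The 10 genes did not vary alike between libraries. Hspa1a, Hspa1b, Hspb1 and Dnajb1 were highest in a TG library, and the other 6 were highest in WT3, the same library in which Hspa1b and Dnajb1 were lowest. Relative to the WT mean, the median of the 10 genes was -0.04, -0.07 and 0.09 on the log2 scale across WT1 to WT3 against -0.06, -0.05 and -0.06 across TG1 to TG3. Their summed FPKM was 1416 in WT3 and between 1222 and 1261 in the other 5 libraries. As a share of all FPKM of the library, this was 0.479% in WT3 and 0.447% to 0.461% in the other 5. With all libraries rescaled to the same summed FPKM, the median log2 fold change of the 10 genes was -0.02 instead of -0.05. WT3 was the highest library for 25.1% of all genes tested and for 27.9% of the coding genes tested. It was also the lowest library for 25.4% of all genes tested. The part of this library in the lower TG values of Hsp90aa1, Hspd1 and Hspe1 was not tested beyond the estimates without it given above.

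**Figure D3:**
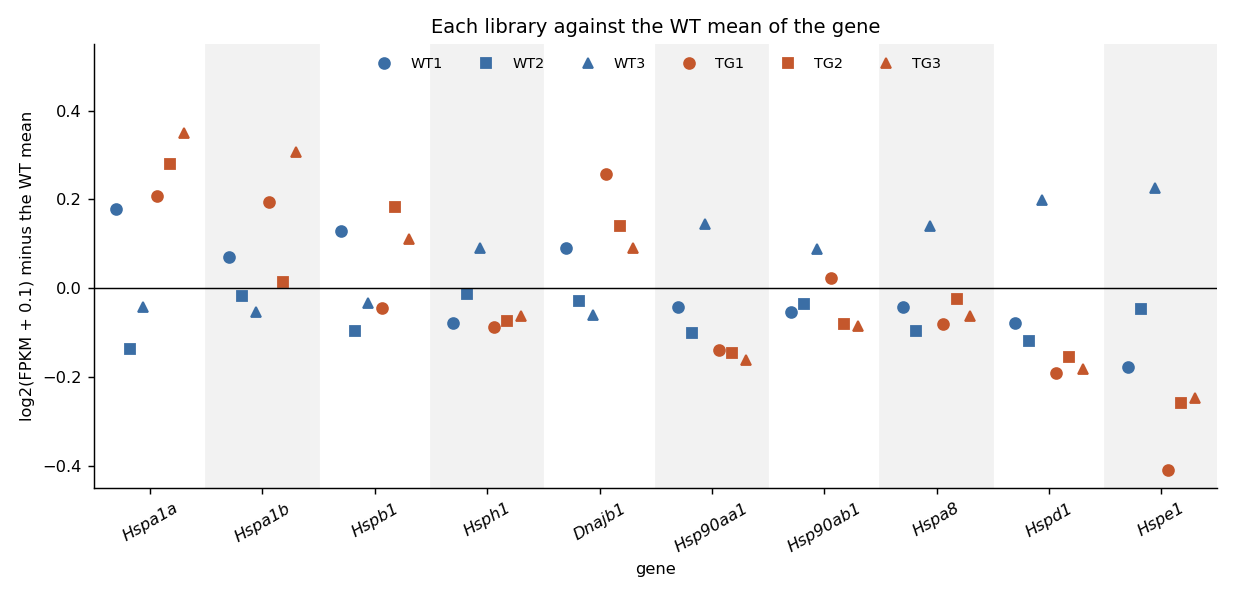
Difference of each library from the WT mean of the gene in log2(FPKM + 0.1) (y axis) for the 10 genes (x axis), with 1 symbol per library. WT3 (blue triangles) is the highest library for Hsph1, Hsp90aa1, Hsp90ab1, Hspa8, Hspd1 and Hspe1 and lies below the WT mean for Hspa1a, Hspa1b, Hspb1 and Dnajb1.

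Ratios of 2 genes within a library do not depend on how that library was scaled. The ratio of the inducible pair Hspa1a and Hspa1b to the constitutive Hspa8 was 0.0378, 0.0347 and 0.0297 across WT1 to WT3 against 0.0412, 0.0374 and 0.0444 across TG1 to TG3. TG2 fell just below WT1, so the groups overlapped, with a difference of 0.27 on the log2 scale. The difference was 0.18 without WT3 and 0.35 without WT1. Hsp90aa1 over Hsp90ab1 was 0.456, 0.432 and 0.470 in WT and 0.404, 0.433 and 0.429 in TG, a difference of -0.10. Hspe1 over Hspd1 was 0.585, 0.657 and 0.638 in WT and 0.538, 0.582 and 0.598 in TG, a difference of -0.13, with TG3 above WT1. In a two-sided exact permutation test, each of the 3 ratios had p = 0.2 and an adjusted p of 0.2 over the 3. The smallest p that the 20 labelings of 3 against 3 libraries allow is 0.1.

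**Figure D4:**
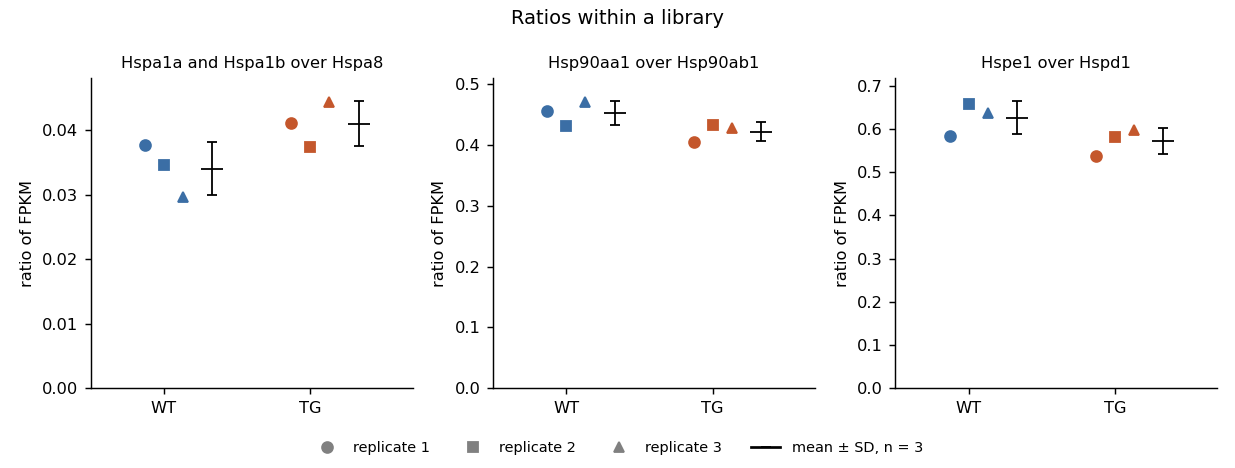
Ratio of FPKM within each library (y axis, from 0) for 3 pairs in WT and TG mice (x axis), with 1 symbol per library and the mean ± SD (n = 3) as bars. The groups overlap for all 3 ratios.

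The rest of the chaperone system was described with 8 lists of 107 genes, of which 103 were tested. At an unadjusted p under 0.05, 1 gene of the 103 was higher and 4 were lower in TG mice. Of all genes tested, 3.13% were higher and 2.78% lower at this threshold, which also applies to the counts per list below. The smallest adjusted p was 0.786, and the median log2 fold change was -0.05. The estimates were positive for 34 and negative for 69 genes. WT3 was the highest library for 63 of the 103 genes (61.2%), beside 25.1% of all genes and 27.9% of coding genes tested. It was the lowest library for 25.4% of all genes tested.

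Of the heat shock factors and their regulators, 5 of 7 genes were tested (Hsf5 and Hsf2bp were too low), and none passed an unadjusted p of 0.05, with a median of -0.11. Hsf1, which encodes the factor that drives the stress response, had 4.29 ± 0.257 FPKM in WT and 4.02 ± 0.285 FPKM in TG mice. Hsf2 had the smallest p of the list (log2 fold change -0.22), and Hsbp1, which encodes a protein that binds HSF1 trimers, was the most abundant (-0.18). Among 7 other HSP70 and HSP110 genes, 0 passed, with a median of 0.02. The atypical HSP70 genes Hspa12b and Hspa12a gave -0.17 and 0.09.

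Of the other small heat shock proteins, 8 of 9 were tested (all but Cryaa), 1 was higher and 1 was lower. Hspb8, which encodes a partner of BAG3 in the removal of damaged proteins, had an FPKM of 7.32, 7.81 and 9.20 across WT1 to WT3 against 10.01, 10.3 and 9.54 across TG1 to TG3. The groups did not overlap, with a log2 fold change of 0.30 (interval 0.06 to 0.53, adjusted p = 0.786). It stayed under the unadjusted threshold without WT3 or TG3 and not without WT1, WT2, TG1 or TG2. Hspb3, a small heat shock gene known from muscle, had values of 0.623, 0.317 and 0.889 in WT and of 0.162, 0.214 and 0.284 in TG mice, all under 1 FPKM, with a log2 fold change of -1.08 (interval -1.97 to -0.19, adjusted p = 0.786). Hspb3 stayed under that threshold without WT2 or TG3 and not without the other 4. Cryab, which encodes alpha-B-crystallin and was the most abundant of the list, gave -0.11.

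Of 20 tested J-domain genes of the cytosol, 11 nucleotide exchange factors and cochaperones of HSP70 and 19 other mitochondrial chaperones and proteases, 0 passed in either direction, with medians of -0.01, -0.03 and -0.04. Dnajb8 was not tested. Dnajc7 gave -0.13 and the abundant Dnaja2 -0.08. Bag1, an exchange factor of HSP70, gave -0.23 with all TG below all WT values. In the mitochondrion, Dnajc19 of the protein import motor gave -0.27. Hspa9, the matrix HSP70, gave -0.12, with 57.0, 54.5 and 65.7 FPKM across WT1 to WT3 against 53.6, 54.4 and 54.1 FPKM across TG1 to TG3. As for Hspd1, all TG values of Hspa9 were below the WT values and WT3 was the highest.

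Of 19 HSP90 cochaperones, 1 was lower and 0 were higher, with a median of -0.05. This was Ahsa1, the activator of the HSP90 ATPase, with 20.6, 20.2 and 24.0 FPKM in WT and 17.6, 19.8 and 18.4 FPKM in TG mice, with an estimate of -0.21 (adjusted p = 0.786). Ahsa1 stayed under the unadjusted threshold without WT2 or TG2, and without WT3 its estimate was -0.14. Fkbp8, the most abundant, gave -0.07. All 14 listed subunits of TRiC and prefoldin, the machinery that folds actin and tubulin, had negative estimates, with a median of -0.15. WT3 was the highest library for 13 of them. The list is not complete for prefoldin, and Cct6b lay near the filter, at 0.124 FPKM in WT and 0.0905 FPKM in TG mice. The median deviation of the 14 from the WT mean was -0.08, -0.13 and 0.18 across WT1 to WT3 against -0.15, -0.11 and -0.11 across TG1 to TG3, so that WT2 lay among the TG libraries. The prefoldin subunits Pfdn2 (-0.28) and Vbp1 (-0.24) passed the unadjusted threshold, both with an adjusted p of 0.786, and the abundant Pfdn5 gave -0.18. Without WT3, Vbp1 was at -0.14, Pfdn2 at -0.20 and Pfdn5 at -0.04, and without TG1 Pfdn2 was at -0.18 and Pfdn5 at -0.10. Pfdn2 stayed under the unadjusted threshold when TG3 was left out and Vbp1 when WT2 was, and neither did without any of the other 5.

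**Figure D5:**
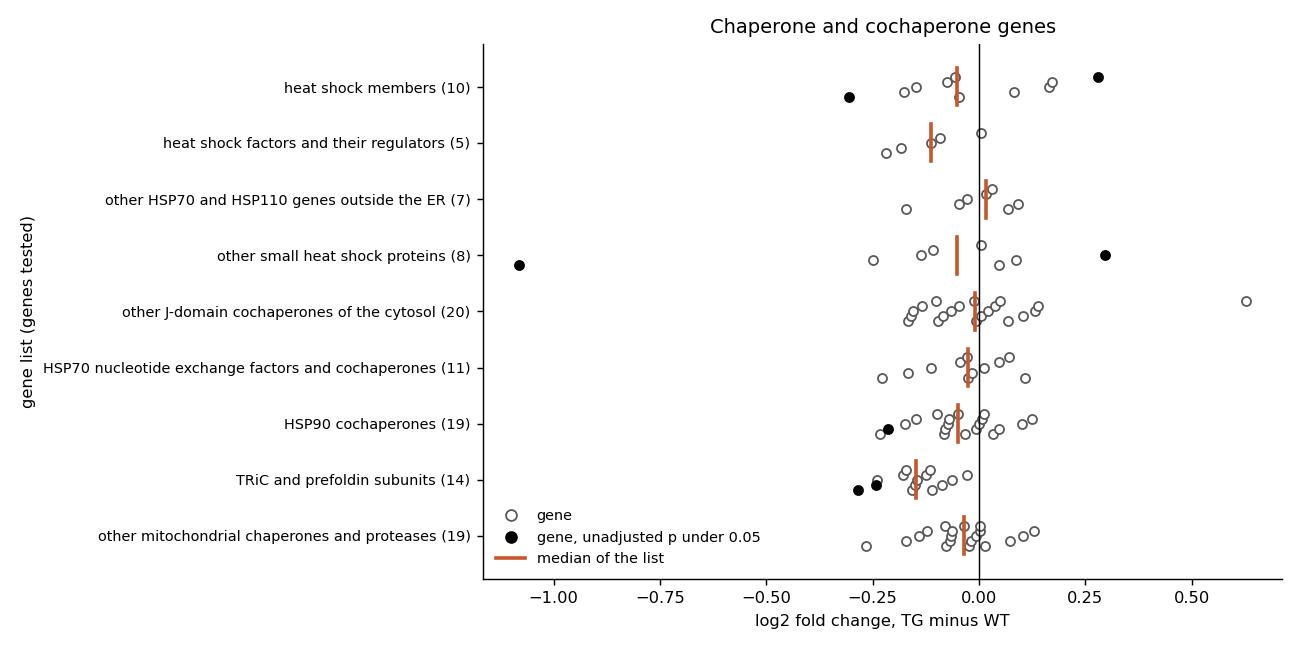
Log2 fold change between TG and WT mice (x axis) of each tested gene in the 10 genes and the 8 other lists (y axis, with the number tested), where filled points have an unadjusted p under 0.05 and bars mark the median of a list. The medians lie between -0.15 for TRiC and prefoldin and 0.02 for the other HSP70 and HSP110 genes.

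The libraries differed in other ways that move beside these values. Genes of the choroid plexus, an epithelium next to the hippocampus, summed to 1210 and 3825 FPKM in TG1 and TG2 and to 56.5 to 80.5 FPKM in the other 4 libraries, with none of the 10 markers at 0. TG3, at 64.5 FPKM within the WT range, had the highest Hspa1a and Hspa1b. With TG1 and TG2 left out, the log2 fold change was 0.35 for Hspa1a, 0.31 for Hspa1b and -0.25 for Hspe1, of which that of Hspa1b passed the unadjusted threshold, with 1 TG library assumed to vary like the WT libraries. Immediate early genes, which respond to neuronal activity and handling, were positive for 13 of 16, with a median log2 fold change of 0.22. Their median deviation from the WT mean was -0.20, 0.08 and 0.10 across WT1 to WT3 against 0.31, 0.00 and 0.26 across TG1 to TG3. Myelin markers were negative for 10 of 10 (median -0.29), with the lowest sum in TG1. The median was 0.04 for astrocyte, 0.12 for microglia, 0.11 for endothelium and 0.03 for neuron markers. The neuron and hippocampus markers summed to 912 to 1016 FPKM, with none at 0 in any library. The part of these differences in the heat shock values was not tested, and in bulk tissue fewer cells of a type and less RNA per cell cannot be told apart. Slc1a2 itself had an FPKM of 202.5, 199.5 and 177 in WT and of 222, 207 and 217 in TG mice, with an estimate of 0.16 on the log2 scale (adjusted p = 0.789), and the knocked-in bases cannot be read from FPKM.

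The genes most like the mean profile of Hspa1a, Hspa1b, Hspb1, Hsph1 and Dnajb1 over the 6 libraries were Fgl2 (Pearson r = 0.995), Plxdc1 (0.990), Pde5a (0.988), Lasp1 (0.988) and Pou3f4 (0.985). They were the highest 5 of 11907 coding genes compared. Hsph1 itself was highest in WT3, where the mean profile lay at -0.08 on the log2 scale, so the profile does not describe Hsph1. With 6 libraries that also differ in depth and in the marker sums above, these values are a description. Lasp1 had the highest level of the 5, with 15.9, 14.2 and 14.3 FPKM across WT1 to WT3 against 16.8, 16.7 and 17.7 FPKM across TG1 to TG3.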

How the data were processed

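Hippocampal RNA of 3 WT and 3 TG mice was sequenced. The authors counted reads per gene with HTSeq and deposited FPKM, 1 column per library, computed from read count and gene length. The aligner and the use of strand were not given in the sources used here, and the submitters' processing notes name GRCm38 and mm10. For extraction and library preparation, Trizol and NEBNext Ultra are named in the methods, but RNeasy and SMARTer in the labels. All 10 genes had the same start and end in GENCODE M21 (GRCm38). Whole reads were recovered from FPKM and gene length for every value (tolerance 0.05 reads) and summed to between 16081281 and 18751057 per library. At this depth, 3 reads on 1 kb equal 0.160 to 0.190 FPKM, a limit of counting only, since reads carry no molecular identifiers.

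The 20952 of 54532 genes that averaged 0.1 FPKM or more were tested on log2(FPKM + 0.1) with limma 3.58.1 in R 4.3.3 (lmFit, eBayes with trend), without covariates, and adjusted by Benjamini-Hochberg over all genes tested. Intervals are at 95%. Ratios were compared by exact permutation test in Python 3.11.15 with scipy 1.17.1. The fit was tested on simulated data with planted log2 fold changes of size 1 in both directions. Changes as small as those of the 10 genes were not covered by it. The genes and lists were chosen with earlier results of these data known. Named genes were all 10 members and, of each other list, the gene with the smallest p, the most abundant gene and every gene with an unadjusted p under 0.05; Hsf1 and Hspd1-ps3 were added after their values were seen. Alternatives were pseudocounts of 0.01 and 1, no filter, a filter at 1, 2 other scalings, no variance trend, limma-voom on recovered reads, a replicate block, leaving out each library, and leaving out TG1 and TG2.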

Additional observations from a re-analysis of the deposited data

How the results depend on the processing

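Over 16 alternative settings, 159 of the 160 log2 fold changes of the 10 genes kept their direction and stayed above an adjusted p of 0.05, with 0.636 as the lowest adjusted p. The exception was Hspa8, which ranged from -0.10 to 0.0142 when single libraries were left out and was positive without WT3. The number of the 10 genes higher at an unadjusted p under 0.05 was 0 instead of 1 with no variance trend and with limma-voom on recovered reads, and ranged from 0 to 2 when 1 library was left out, with 2 without WT1 and 0 without WT2, WT3 or TG3. The number lower was 0 with no variance trend and without both TG1 and TG2, and ranged from 0 to 1 when 1 library was left out, with 0 without WT2, TG1, TG2 or TG3. Of the 103 network genes, 5 passed an unadjusted p of 0.05, and 2 did with no variance trend. With the filter at a mean FPKM of 1, 3 did, but this filter leaves genes such as Hspb3 untested. When 1 library was left out, between 1 (without WT1, WT3, TG1 or TG2) and 8 (without WT2) passed. Among 17 named network genes, 267 of 271 values kept their direction. The exceptions were Cryab (-0.20 to 0.0171 with 1 library left out, positive without TG1), Dnaja2 (-0.14 to 0.0202, positive without WT3), Hspa12a (-0.00337 to 0.14, negative without WT3) and Hspa12b (0.0296 without TG1 and TG2). The causes of these changes were not tested. Of all genes, 656 were higher and 582 lower at an unadjusted p under 0.05, 731 and 447 with all libraries rescaled to the same summed FPKM, and 768 and 485 with limma-voom. The fewest reads stood behind Hspb1 and Hspa1a, so depth limits these most.

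Replicate numbers are shared between WT and TG labels, and the main test did not pair them. Deviations from the group means had correlations of 0.0125, 0.0434 and 0.00314 between same-numbered libraries. Between libraries of different number they ranged from -0.0274 to 0.0159. Whether same-numbered mice shared a litter or batch was not tested. With a replicate block, 1 of the 10 genes, Hspe1, was lower at an unadjusted p under 0.05 and 0 were higher.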
